A study of Mus musculus with 4 samples.

Results

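The genes described are 10 enzymes of glycolysis, chosen by name: HK1, GPI1, PFKL, PFKP, ALDOA, TPI1, PGK1, ENO1, PKM2 and LDHA. A probe belonged to the set when the name in the deposited non-normalized table equalled one of these symbols, which gave 23 of the 45281 probes on the array, for 9 of the 10 enzymes (of 29529 gene names on the array). No probe carried the name LDHA. The probe listed as LDH1, an older name that belongs to Ldha alone in the RefSeq annotation, is described beside the set and was not counted in it. Of the 23 probes, 17 were above background on at least 2 of the 4 arrays and were tested, together with 20797 probes in all. The other 6 probes (3 of Pfkp, 2 of Pgk1 and 1 of Eno1) had signals between 101.2 and 123.1, at background on at least 3 arrays.

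The tissue was subcutaneous white fat. It came from C57BL/6 mice aged 8 to 12 weeks which in both groups were fed doxycycline in high-fat chow during 3 weeks. The 2 FtMT-Adip arrays are from mice with a fat-specific transgene for mitochondrial ferritin, an iron-storing protein, and the 2 WT arrays are from wild-type mice on the same diet. The promoter that drives the transgene, any other allele the mice carry, and whether mice were pooled for an array are not given in the labels. The p-values therefore measure the spread between these arrays, which may in part be technical.

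Glycolysis splits glucose into pyruvate in the cytosol. Its first steps trap and activate the sugar (hexokinase, phosphoglucose isomerase, phosphofructokinase), the middle steps cut it into interconvertible triose phosphates (aldolase, triose phosphate isomerase), and the last steps harvest ATP and pyruvate (phosphoglycerate kinase, enolase, pyruvate kinase), which lactate dehydrogenase can reduce to lactate. In adipocytes the pathway also feeds glycerol phosphate and acetyl-CoA into triglyceride, and activated macrophages are known for high glycolytic activity. Most steps have several isoenzyme genes with different tissue distributions.

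Median signal per array lay between 116.5 and 119.0 and between 19717 and 20427 probes exceeded the background set by receptor probes. The tissue label was checked against 12 adipocyte markers, all of which were tested. Their summed signal was 125640.9 and 103900.6 on the WT arrays against 36094.6 and 51716.2 on the FtMT-Adip arrays, and 9 of the 12 were lower. Of those 9, Retn and Fabp4 were above background in WT only and so passed the filter through WT. Macrophage markers moved the other way, with 10 of 13 tested genes higher (summed signal 15664.3 and 18316.9 in WT, 35490.3 and 32867.1 in FtMT-Adip), and 1 of the 14 listed, Msr1, was at background. Of the 13, Itgam was above background in FtMT-Adip only and so passed the filter through FtMT-Adip, and it was not among the 10. In whole tissue, fewer cells of a type and less RNA per cell cannot be told apart. Skeletal muscle markers stood at a summed signal of 15401.6 on FtMT-Adip 1, against 5394.5 and 5663.9 in WT and 5504.5 on FtMT-Adip 2, with the myosin genes Myh1, Myh2 and Myh4 at background. Myl1 made up much of the sum in WT. By gene, 10 of the 12 tested muscle markers were above both WT arrays on FtMT-Adip 2 as well. Of those 10, Actn3 and Ttn were above background in FtMT-Adip only and so passed the filter through FtMT-Adip. Acta1 gave 614.1 and 582.8 in WT, 2984.0 on FtMT-Adip 1 and 1246.8 on FtMT-Adip 2.

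The glycolytic enzymes did not move as a block. A probe of pyruvate kinase (Pkm) and a probe of the platelet-type phosphofructokinase (Pfkp) rose in FtMT-Adip, and a probe of triose phosphate isomerase (Tpi1) fell, by 1.87-fold, 1.61-fold and 1.68-fold. These were 2 higher and 1 lower of the 17 tested probes at a Benjamini-Hochberg adjusted p under 0.05 in limma, where 3.28% of all tested probes were higher and 4.16% were lower (7.44% in all). The median log2 change was 0.02 over the 17 probes and 0.00 over all 20797. At an unadjusted p under 0.05 there were 7 of the 17, against 21.4% of all tested probes. The arrays of the groups did not overlap for 10 of the 17 probes, against 51.5% of all tested probes.

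**Figure D1:**
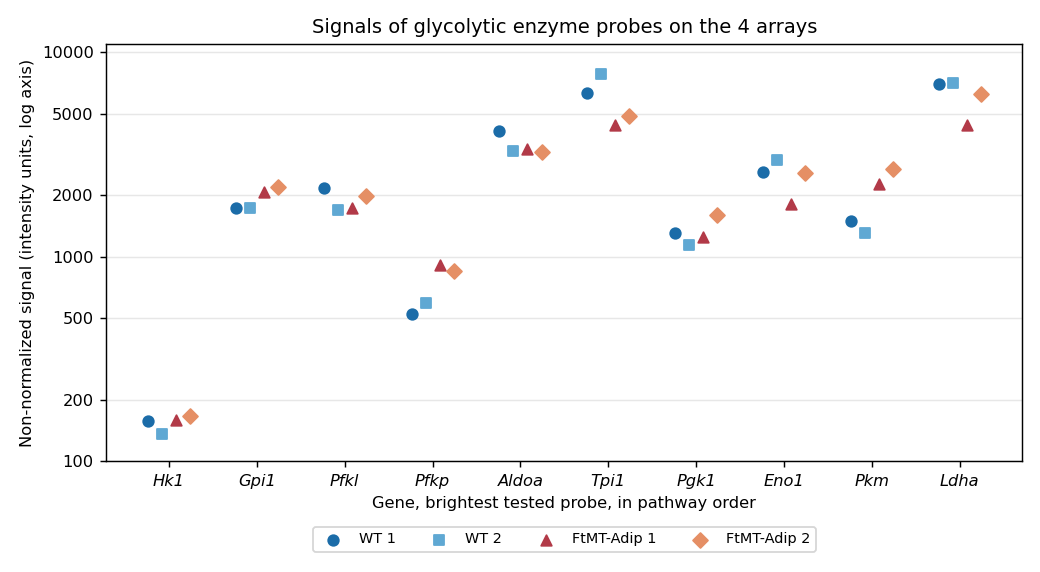
Non-normalized signal (intensity units, log axis) of the brightest tested probe of each enzyme gene on each array. Blue symbols are the 2 WT arrays and red and orange symbols the 2 FtMT-Adip arrays; heights of different genes are not comparable because each probe has its own brightness. Pkm and Pfkp are higher on both FtMT-Adip arrays and Tpi1 is lower on both.

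The Hk1 and Gpi1 probes at the start of the pathway did not pass the test. Hk1, the hexokinase that commonly sits on mitochondria, had signals of 156.6 and 136.2 on the WT arrays and 158.6 and 167.0 on the FtMT-Adip arrays. Its raw signal on FtMT-Adip 1 was close to that of WT 1, and the log2 change was 0.20 (SE 0.129, adjusted p = 0.427). Gpi1, the isomerase that converts glucose phosphate to fructose phosphate, gave 1732.9 and 1726.8 on the WT arrays and 2078.3 and 2193.0 on the FtMT-Adip arrays by its brightest probe (ILMN_2692845). Both FtMT-Adip arrays were above both WT arrays, with a log2 change of 0.37 (95% interval 0.04 to 0.71, adjusted p = 0.180). The other 2 Gpi1 probes stood at 0.13 and 0.24 (adjusted p = 0.703 and 0.239). In the authors' deposited table the brightest Gpi1 probe had a ratio of FtMT-Adip to WT of 0.970, with the opposite direction.

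Phosphofructokinase, which commits the sugar to glycolysis, was represented by its liver-type and platelet-type genes. The promoter sequences of the 3 genes with a called probe are shown where each gene is described, so that the letters upstream of genes that moved in different directions can be compared. They are the 250 bases before the first annotated start, in RefSeq's GRCm38.p6, 5′ to 3′ on the gene's strand, with capitals at each ACGTG or GCGTG (the core of the hypoxia-response element) and each GGGCGG (the GC box), searched on both strands. ACGTG or GCGTG occurs in 38.6% and GGGCGG in 32.7% of the 32851 promoter windows of the same length. The promoter of Pfkp lies on the minus strand at chr13:6648772-6649021.
Pfkp: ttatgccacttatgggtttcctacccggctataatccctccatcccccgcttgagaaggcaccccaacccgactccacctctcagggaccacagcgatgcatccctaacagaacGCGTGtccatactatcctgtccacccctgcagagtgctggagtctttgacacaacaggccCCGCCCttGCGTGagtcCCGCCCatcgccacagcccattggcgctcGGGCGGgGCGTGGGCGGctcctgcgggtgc
It holds 3 matches to GCGTG and 4 to GGGCGG, of which the last of each share a base.

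Pfkp gave 522.9 and 593.5 on the WT arrays and 906.6 and 855.5 on the FtMT-Adip arrays by its brightest probe (ILMN_1237695). The groups did not overlap. Mean log2 signal went from 9.02 ± 0.22 for WT to 9.71 ± 0.15 for FtMT-Adip (SD, n = 2 each), a log2 change of 0.68 (SE 0.172, adjusted p = 0.0474). This call lay at the threshold and ended when any 1 of the 4 arrays was left out (log2 change 0.52 to 0.83, adjusted p from 0.0504 to 0.232) and with the replicate number as a block (adjusted p = 0.0882). The brightest probe also did not pass in the authors' normalized values (0.54, adjusted p = 0.171) or without a filter on dim probes (adjusted p = 0.0817). The other tested Pfkp probe (ILMN_2673233) had dim signals of 163.8 and 164.2 on the WT arrays and 149.3 and 187.2 on the FtMT-Adip arrays. The groups thus overlapped for this probe, with a log2 change of 0.00 (95% interval -0.34 to 0.35). The difference in change between both probes was 0.68 on the log2 scale (exact permutation p = 0.333, two-sided, the smallest that 2 against 2 arrays allow).

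Pfkl, the liver-type gene, gave 2178.7 and 1688.8 on the WT arrays and 1731.1 and 1989.9 on the FtMT-Adip arrays (ILMN_1236539). The groups overlapped, with a log2 change of 0.02 (95% interval -0.34 to 0.37, adjusted p = 0.970), and the sign turned with median scaling in place of quantile normalization (-0.06). The log2 signal of the Pfkp probe minus that of the Pfkl probe on the same array averaged -1.82 for WT and -1.15 for FtMT-Adip, a difference of 0.67 that was not tested.

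In the middle of the pathway a Tpi1 probe fell and Aldoa did not pass the test. Aldoa, the aldolase that splits the activated hexose into trioses, gave 4118.1 and 3278.9 on the WT arrays and 3365.9 and 3271.9 on the FtMT-Adip arrays. The groups overlapped after normalization, with a log2 change of -0.08 (95% interval -0.42 to 0.26, adjusted p = 0.819). Tpi1 encodes the isomerase that interconverts the trioses made by aldolase, and its promoter lies on the minus strand at chr6:124814159-124814408.
Tpi1: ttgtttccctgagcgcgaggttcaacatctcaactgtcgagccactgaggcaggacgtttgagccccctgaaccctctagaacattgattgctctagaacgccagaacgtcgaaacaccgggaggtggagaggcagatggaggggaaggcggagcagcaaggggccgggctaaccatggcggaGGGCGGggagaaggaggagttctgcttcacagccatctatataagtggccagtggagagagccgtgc
It holds 1 match to GGGCGG and no ACGTG or GCGTG, which says only that these letters are not in this window.

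The called Tpi1 probe (ILMN_2932359) gave 3489.5 and 3374.3 on the WT arrays and 1750.1 and 2208.3 on the FtMT-Adip arrays. The FtMT-Adip arrays both lay below the WT arrays. Mean log2 signal went from 11.69 ± 0.05 for WT to 10.94 ± 0.16 for FtMT-Adip (SD, n = 2 each), a log2 change of -0.75 (SE 0.151, adjusted p = 0.0198). The brightest Tpi1 probe (ILMN_1230137) gave 6362.8 and 7824.0 on the WT arrays and 4404.4 and 4882.9 on the FtMT-Adip arrays. It was also lower on both FtMT-Adip arrays, at -0.54 (SE 0.164, adjusted p = 0.0902), and passed the threshold with median scaling (-0.62, adjusted p = 0.0424). The third and dimmest probe (ILMN_1231447) gave 191.5 and 205.3 against 159.7 and 171.1, a log2 change of -0.39 (SE 0.136, adjusted p = 0.139). All 3 Tpi1 probes thus lay lower on both FtMT-Adip arrays, of which 1 passed the test. The call of ILMN_2932359 remained only when FtMT-Adip 2 was the array left out (-0.86 to -0.63 over the 4); without WT 1 the brightest probe passed in its place (-0.75, adjusted p = 0.0344). In the authors' normalized values it stood at -0.65 (adjusted p = 0.190).

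The last part of the pathway was mixed. Pgk1, the kinase of the first ATP-yielding step, gave 1300.4 and 1144.3 on the WT arrays and 1249.2 and 1591.6 on the FtMT-Adip arrays (ILMN_2651886). Its raw signal on FtMT-Adip 1 lay between those of WT, while after normalization both FtMT-Adip arrays lay above both WT arrays. The log2 change was 0.26 (SE 0.159, adjusted p = 0.407). Eno1, the ubiquitous enolase, gave 2606.4 and 2969.7 on the WT arrays and 1806.9 and 2580.1 on the FtMT-Adip arrays by its brightest probe (ILMN_2958159). It was lowest on FtMT-Adip 1, with a log2 change of -0.31 (95% interval -0.73 to 0.12, adjusted p = 0.401). Its other tested probe stood at -0.03 (adjusted p = 0.939).

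Pkm encodes the muscle-type pyruvate kinase, which makes pyruvate and ATP in the last step and is spliced into the forms M1 and M2. The table lists its probes as PKM2, an older name for the whole gene, so which spliced form a probe detects is not known here. The upstream-most of its 2 annotated starts has its promoter on the plus strand at chr9:59656326-59656575.
Pkm: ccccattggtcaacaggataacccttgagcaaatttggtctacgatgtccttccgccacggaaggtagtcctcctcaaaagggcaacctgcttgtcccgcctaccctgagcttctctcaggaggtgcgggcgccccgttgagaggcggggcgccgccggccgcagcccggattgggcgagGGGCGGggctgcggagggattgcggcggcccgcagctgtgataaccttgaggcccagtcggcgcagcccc
It holds 1 match to GGGCGG and, as in Tpi1, no ACGTG or GCGTG.

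The called Pkm probe (ILMN_2756041) gave 1497.6 and 1300.5 on the WT arrays and 2260.5 and 2675.4 on the FtMT-Adip arrays. Every FtMT-Adip array was above every WT array. Mean log2 signal went from 10.38 ± 0.07 for WT to 11.28 ± 0.09 for FtMT-Adip (SD, n = 2 each), a log2 change of 0.90 (SE 0.148, adjusted p = 0.00852). The call remained when any 1 array was left out (0.85 to 0.97, adjusted p from 0.0217 to 0.0344) and with the replicate block (adjusted p = 0.0240). In the values that the authors normalized the log2 change was 0.65 and did not pass (adjusted p = 0.225), and the ratio in the authors' deposited table was 1.68. The dimmer probe (ILMN_2723860) gave 203.1 and 194.1 on the WT arrays and 269.7 and 261.3 on the FtMT-Adip arrays. It too was higher on both FtMT-Adip arrays, at 0.49 (SE 0.144, adjusted p = 0.0797), which did not pass.

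Ldha, the lactate dehydrogenase subunit that favours lactate formation, gave 6980.3 and 7119.0 on the WT arrays and 4422.5 and 6257.1 on the FtMT-Adip arrays by the probe listed as LDH1 (ILMN_1257965). Both FtMT-Adip arrays were lower, FtMT-Adip 1 most, with a log2 change of -0.36 (95% interval -0.73 to 0.02, adjusted p = 0.257). Aldoa, Tpi1, Pgk1, Eno1, Pkm and Ldha have near-identical processed copies in the mouse genome, and probe sequences were not used here, so signal shared with such copies was not examined.

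**Figure D2:**
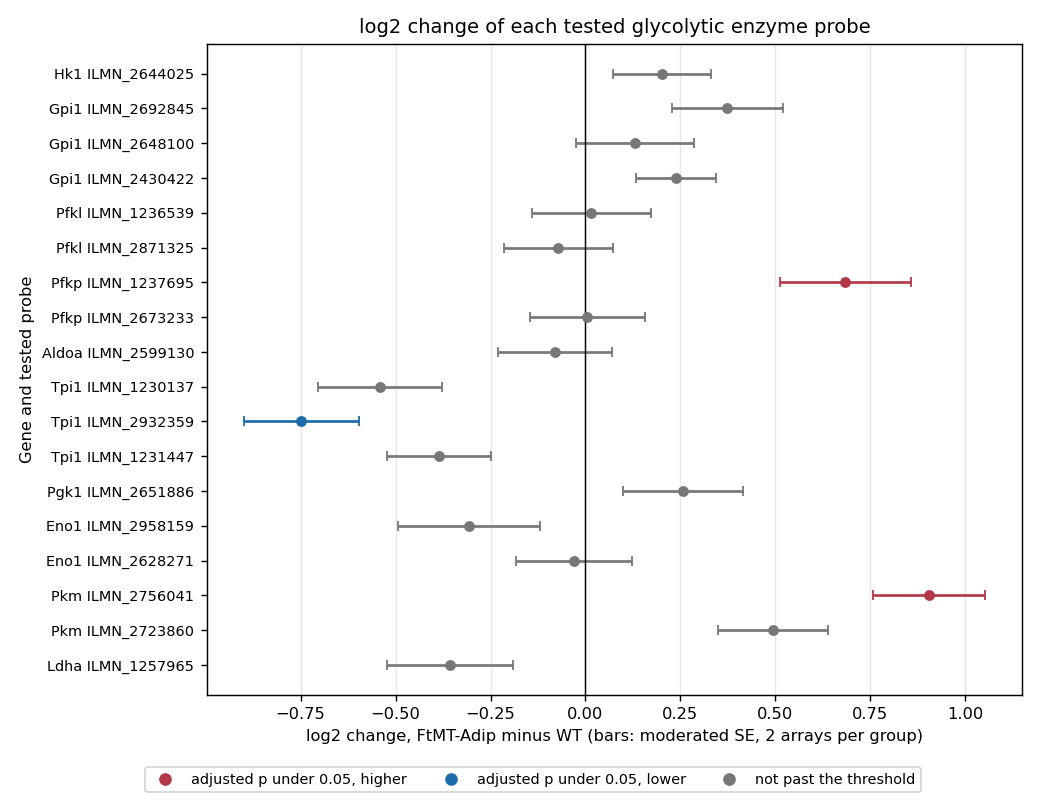
log2 change (FtMT-Adip minus WT, 2 arrays per group) of the 17 tested probes and the Ldha probe, with bars for the moderated SE. Red marks a probe past the threshold and higher, blue one lower, grey one that did not pass; the 2 probes of Pkm and the 3 of Tpi1 lie on 1 side of 0, and the 2 of Pfkp do not lie together.

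Among the other isoenzymes of the pathway, taken from a list of 19 genes, 13 were tested by their brightest probe, and 1 was higher and 0 lower in limma. At an unadjusted p under 0.05 there were 6, and 11 of the 13 changes lay above 0 (median 0.33, against a median of 0.01 and 52.7% above 0 over all 14591 tested genes). The called gene was Hk3, the hexokinase found in myeloid cells, with 169.9 and 185.9 on the WT arrays and 535.0 and 398.6 on the FtMT-Adip arrays (ILMN_3161013). Both FtMT-Adip arrays were above both WT arrays, by 1.63 on the log2 scale (3.10-fold, SE 0.208, adjusted p = 0.00308), and the call remained when any 1 array was left out (1.35 to 1.91). A second Hk3 probe was at background. Hk2, the insulin-responsive hexokinase of muscle and fat, gave 2394.7 and 2241.2 in WT, 1712.1 on FtMT-Adip 1 and 3389.4 on FtMT-Adip 2. The FtMT-Adip arrays thus lay on either side of WT, with a log2 change of 0.13 (adjusted p = 0.823).

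Gapdh, the dehydrogenase between Tpi1 and Pgk1 and often used as a reference gene, did not pass the test. Its brightest probe, listed as GAPD (ILMN_2758581), gave 13559.6 and 11149.0 on the WT arrays and 15180.4 and 17574.6 on the FtMT-Adip arrays. All 3 Gapdh probes were higher on both FtMT-Adip arrays, with log2 changes of 0.49, 0.42 and 0.43, and none passed (adjusted p = 0.0610, 0.0992 and 0.121). The brightest passed when all probes were tested without a filter (adjusted p = 0.0338). In the authors' normalized values its log2 change was 0.19 (adjusted p = 0.794).

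Eno3 and Pgam2, the enolase and phosphoglycerate mutase of muscle, were highest on FtMT-Adip 1, the array with the highest skeletal muscle signal. Eno3 gave 218.2 and 264.8 in WT, 527.5 on FtMT-Adip 1 and 309.3 on FtMT-Adip 2 (log2 change 0.84, adjusted p = 0.131). Pgam2 gave 106.9 and 119.0 in WT, 217.1 on FtMT-Adip 1 and 125.1 on FtMT-Adip 2. It was not above background on either WT array, so no change is given. The part of muscle RNA in these values was not tested. Ldhb, the heart-type lactate dehydrogenase subunit listed as LDH2, differed widely within WT, with 4461.0 on WT 1 and 1079.3 on WT 2 against 1779.0 and 2566.2 in FtMT-Adip (0.03, adjusted p = 0.980).

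**Figure D3:**
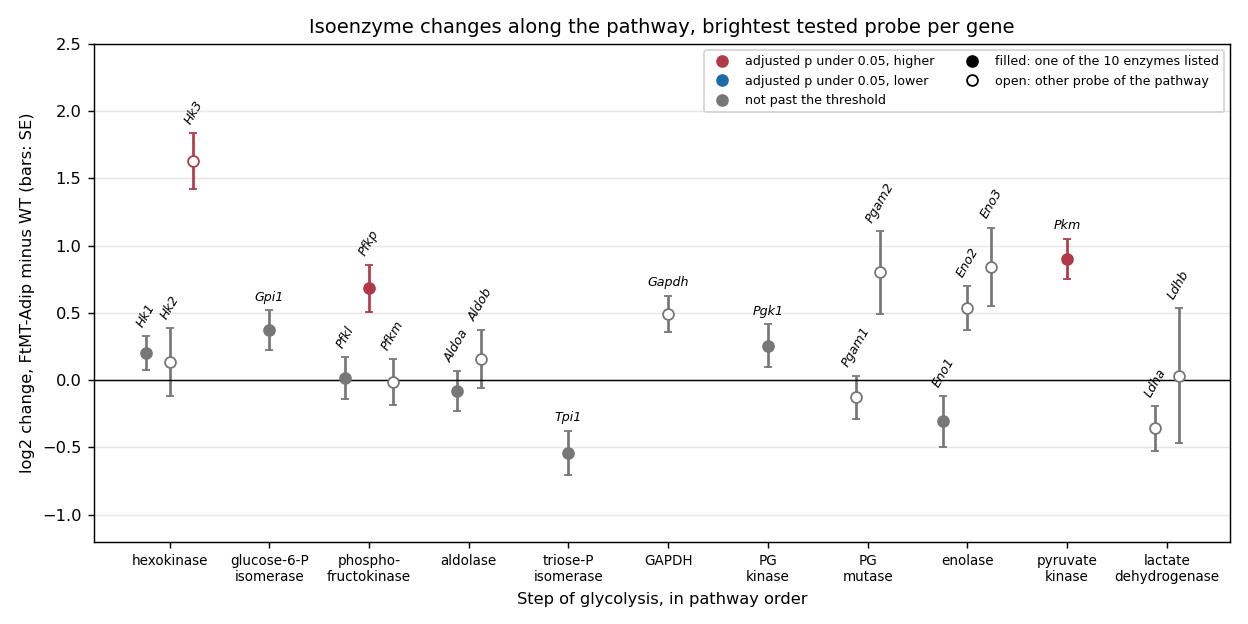
log2 change (FtMT-Adip minus WT, bars are SE) of tested isoenzymes at each step of glycolysis, by its brightest tested probe. Filled symbols are enzymes of the chosen set and open symbols other genes or names; Hk3, Pfkp and Pkm are past the threshold, and Tpi1 is grey because its brightest probe (-0.54) did not pass while a dimmer one did. Pgam2 was above background on the FtMT-Adip arrays only.

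In 6 lists of pathways that lead to and from glycolysis or regulate it, 4 of 36 tested genes were called (11.1%), where 7.86% of all tested genes were. In glucose and lactate transport 1 of 6 tested genes was lower, Slc16a7, a monocarboxylate transporter listed as D630004K10RIK, with 514.8 and 415.4 on the WT arrays and 298.6 and 305.5 on the FtMT-Adip arrays (log2 change -0.73, adjusted p = 0.0273). All 6 changes in that list lay below 0 (median -0.21), where 52.7% of all tested genes lay above 0. The insulin-regulated glucose transporter gene Slc2a4 stood at -0.40 (adjusted p = 0.414) and the basal transporter gene Slc2a1 at -0.10 (adjusted p = 0.765). The call of Slc16a7 remained only when WT 2 was the array left out (-0.86 to -0.60 over the 4).

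Glycogen and hexose phosphate handling had 2 of 10 tested genes higher and 1 lower (median 0.02). Ugp2, which makes the UDP-glucose used for glycogen and glycosylation, gave 404.3 and 328.7 on the WT arrays and 792.9 and 931.7 on the FtMT-Adip arrays. Both arrays of FtMT-Adip stood above both of WT, with a log2 change of 1.35 (SE 0.164, adjusted p = 0.00250), and the call remained when any 1 array was left out (1.22 to 1.46). Gyg, which encodes the glycogen primer glycogenin, rose by 0.72 on the log2 scale (adjusted p = 0.0246, both of its 2 probes called). Pygb, the brain-type glycogen phosphorylase, fell from 1312.8 and 1093.4 to 549.2 and 723.7 (log2 change -0.98, adjusted p = 0.0107). The call of Gyg remained only when WT 2 was the array left out, and that of Pygb ended without WT 1 and without FtMT-Adip 1. In the authors' normalized values Ugp2 (0.66, adjusted p = 0.0747), Gyg, Pygb and Slc16a7 did not pass.

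In limma 0 of 7 tested genes of the pentose phosphate pathway were called, with 3 at an unadjusted p under 0.05. Tkt, a transketolase, stood at 0.53 (adjusted p = 0.0634) and H6pd, a dehydrogenase of the endoplasmic reticulum, at -0.51 (adjusted p = 0.0942). There were also 0 of 7 calls among gluconeogenic bypass enzymes (0 unadjusted; Pcx -0.43, Fbp1 0.23), 0 of 3 among glycerol phosphate enzymes (1 unadjusted; Gk 0.46, Gpd2 0.66) and 0 of 3 among the enzymes of the allosteric activator of phosphofructokinase (0 unadjusted; Pfkfb2 -0.16, Pfkfb3 0.08). Hypoxia-response genes outside glycolysis had 0 of 14 called (3 unadjusted, median -0.05), with Car9 at 0.89 (adjusted p = 0.118), its signal highest on FtMT-Adip 1, and Higd1a at -0.34 (adjusted p = 0.137). Regulators of glycolytic gene expression had 0 of 12 called (2 unadjusted, median -0.01), with Hif1a, the oxygen-sensitive subunit of the hypoxia factor, at -0.37 (adjusted p = 0.173) and Myc at 0.22 (adjusted p = 0.211).

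The values of the called probes were set beside the cell type markers on each array. Relative to its mean over the 4 arrays, Pkm stood at -0.41 and -0.50 on the WT arrays and 0.39 and 0.52 on the FtMT-Adip arrays on the log2 scale. The median of the 13 macrophage markers stood at -0.62 and -0.41 on the WT arrays and 0.59 and 0.38 on the FtMT-Adip arrays. The median of the 12 adipocyte markers lay at 0.60 and 0.38 on the WT arrays and at -0.67 and -0.27 on the FtMT-Adip arrays, beside 0.34 and 0.41, then -0.48 and -0.26, for the called Tpi1 probe. Pkm and the macrophage markers were thus both higher on the FtMT-Adip arrays, and Tpi1 and the adipocyte markers both higher on the WT arrays. With 2 arrays per group, this follows from the direction of each change and shows no closer link. Within each group, Pkm and the macrophage median had the opposite order. Tpi1 and the adipocyte median had the opposite order within WT and the same order within FtMT-Adip. The part of cell composition in Pkm or Tpi1 was not tested. Of 9 endothelial markers, 4 were lower (median -0.63). Of 4 tested red blood cell markers, 3 were lower (median -0.86), and the other, Slc4a1, was above background in WT only. Mast cell markers had 3 of 6 higher and 1 lower (median 1.03), and preadipocyte and fibroblast markers had 2 of 10 higher and 1 lower (median 0.41). The part of these cells was not tested either. Of all other named tested genes, those whose profiles over the 4 arrays lay among the 3 closest to Pkm included Irgm1, an interferon-inducible GTPase listed as IRGM, and Csf1r, the receptor for macrophage colony-stimulating factor and one of the macrophage markers. Their root mean square differences from Pkm after centring were 0.036 and 0.041 on the log2 scale over 4 arrays. They were picked as the smallest among all those genes, and their log2 changes (0.94 and 0.85) were near that of Pkm (0.90). Closeness over 4 arrays thus shows no closer link to Pkm.

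**Figure D4:**
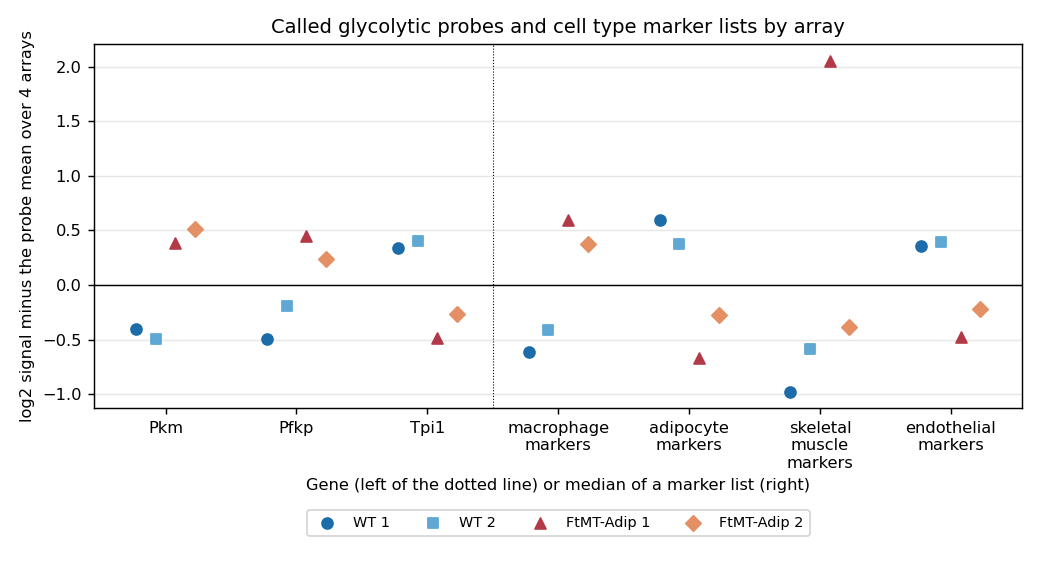
log2 signal of the called Pkm, Pfkp and Tpi1 probes (left of the dotted line) and median log2 signal of 4 marker lists (right), each relative to its mean over the 4 arrays, with 1 symbol per array. Pkm, Pfkp and macrophage markers are above 0 on both FtMT-Adip arrays, Tpi1, adipocyte and endothelial markers below 0, and the muscle median is highest on FtMT-Adip 1 (2.06), with FtMT-Adip 2 (-0.38) above both WT arrays (-0.98 and -0.59).

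**Figure D5:**
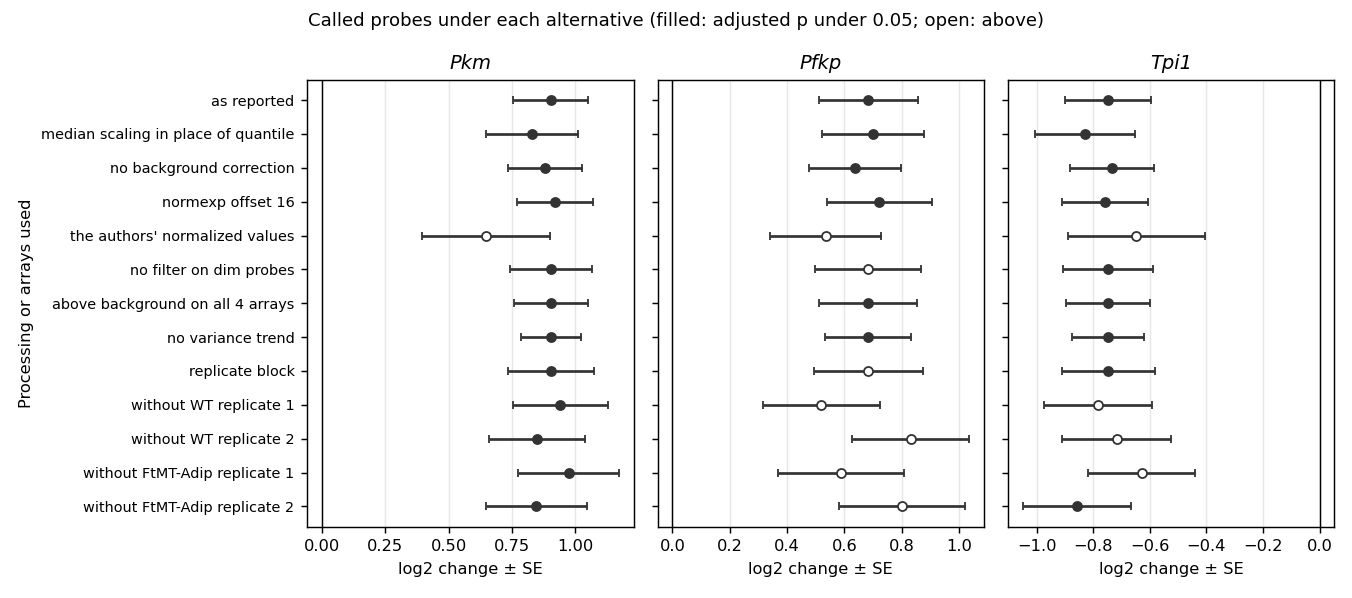
log2 change with SE of the called Pkm, Pfkp and Tpi1 probes as reported and under each alternative processing or with an array left out. Filled symbols have an adjusted p under 0.05. Every value keeps its sign, and Pkm is open in the authors' normalized values alone. Pfkp is open in those values, with the replicate block, without a filter on dim probes and whenever an array is left out.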

How the data were processed

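The deposited non-normalized table holds linear intensity values per Illumina probe, and the authors' second table holds intensity values called normalized per the file headers (how is not given in the sources used here). A deposited series value table equals it (largest difference 0). Per the file headers, that deposited table also carries 1 ratio per probe, FtMT-Adip to WT. Labels name the chip MouseRef-8 v2, while the tables hold 45281 probes, so the chip is not settled.

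The report starts from the first table. R 4.3.3 and limma 3.58.1 were used: normexp background correction (offset 50), quantile normalization, log2. A probe was tested when fewer than 5 percent of 1479 olfactory and vomeronasal receptor probes were as bright, on at least 2 of 4 arrays. Groups were compared by lmFit and eBayes with a variance trend, two-sided, Benjamini-Hochberg over 20797 probes. Table names were matched to RefSeq symbols by symbol (22864 probes) or a single gene's synonym (11917). A gene is represented by its brightest tested probe unless a probe is named. Named were all set members, the called genes of other lists (up to 4) or, where none was called, the 2 with the smallest unadjusted p, and 3 genes most like the member with the largest change (1 of which is not reported here); Slc2a1 and Slc2a4 were chosen outside this rule, after their values were seen. Members and lists were chosen with earlier results of these data known. Alternatives were other scaling, background, filters, variance model, the authors' values, a replicate block and leaving out each array. No batch is recorded. The number of arrays limits precision.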

Additional observations from a re-analysis of the deposited data

How the results depend on the processing

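The call of Pkm kept their direction and side of the threshold under all alternatives except the authors' normalized values. With those values, 282 probes were higher and 328 lower over the array (682 and 866 as reported), 0 glycolytic probes were higher and 0 lower in limma (3 and 2 at an unadjusted p under 0.05), and 2 genes of the other lists were called against 5. Median scaling gave 2 lower glycolytic probes, since a second Tpi1 probe passed. Testing all probes gave 1 higher glycolytic probe, Pkm, as did the replicate block (higher 1), in which Pfkp did not pass; the block ended no other call among the 17 probes. Same-numbered arrays did not deviate together (correlation -0.079), so the numbers are not taken as pairs. Leaving out 1 array, where a lone array is assumed to vary like the others, gave 317 to 763 higher and 344 to 832 lower probes, 1 to 1 higher and 0 to 1 lower glycolytic probes, and 3 to 8 calls in the other lists. The count of lower glycolytic probes was 0 without WT 2 and without FtMT-Adip 1, with 1 and 2 at an unadjusted p under 0.05.

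Some probes that did not pass turned sign. In the authors' values these were Aldoa (0.041), Gpi1 (-0.20 and -0.037) and Pfkl (-0.081), with median scaling Pfkl (-0.058), and with offset 16 the dim Pfkp probe (-1.654e-04). Over the left-out arrays the log2 change ran from -0.18 to 0.020 for Aldoa, from -0.13 to 0.065 for the second Eno1 probe, from -0.0070 to 0.27 for a dimmer Gpi1 probe, from -0.11 to 0.14 and from -0.27 to 0.13 for the Pfkl probes, and from -0.18 to 0.19 for the dim Pfkp probe. The cause of these shifts was not tested. Higher muscle markers numbered 2 as reported, 0 without WT 1 or WT 2 and 11 without FtMT-Adip 2. Alternatives for the other lists, marker lists and probe differences were added after seeing the data.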
